A study of Mus musculus with 214 samples.

Results

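The livers described here came from untreated Mgmt-/- mouse pups in the third week of life, and the comparison follows the liver from postnatal day 16 to postnatal day 20. The members are the saline libraries of sequencing run 191212Eng collected at day 1, day 2 and day 5 after the second of 2 saline injections, which fell on postnatal days 8 and 15, so that the pups were 16, 17 and 20 days old. There were 8 libraries at day 1 (4 females, 4 males), 7 at day 2 (4 females, 3 males) and 6 at day 5 (3 females, 3 males), or 21 of the 213 libraries with values among the 214 labelled samples. Day 5 holds 6 libraries because 2 further libraries labelled day 5, D389017 (male) and D389011 (female), were left out for carrying more than 1000 normalized counts of Kap, the kidney androgen-regulated protein.

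The 21 pups were on a C57BL6 background with the genotype RaDR+/+; GPT+/+; Mgmt-/-, that is, a fluorescent reporter of recombination, a bacterial transgene for scoring mutations, and no gene for the methyltransferase that takes methyl groups off guanine. The study asked how an early dose of the nitrosamine NDMA acts on liver with and without this repair protein. The saline pups were its controls, and here they are read as a record of postnatal liver growth. They are set beside 24 livers of Mgmt-/- pups of the same run that were given NDMA (3.5 mg/kg and then 7 mg/kg on the same postnatal days; 8 each at day 1, day 2 and day 5), 12 saline Mgmt-/- livers of run 200803Eng (4 at day 1, 8 at week 10 after the second injection) and 15 saline WT livers, which carry RaDR+/+ and GPT+/+ and keep Mgmt (8 at day 2, 7 at day 5). Libraries were of the 3′ digital type, in which reads from the ends of polyadenylated RNA are counted. Each litter received a single treatment and the labels name no litter, so age and litter cannot be told apart, and every p-value below measures the spread between mice of one day.

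The mouse liver is still maturing at this age. The newborn organ makes blood cells and fetal growth factors, and in the weeks before and after weaning it shuts those down and switches on the enzymes of adult hepatocytes: cytochrome P450s that oxidise drugs and steroids, transferases that conjugate them, secreted plasma proteins, and proteins under the pulses of growth hormone. Milk is rich in fat and cholesterol and solid food is not, so hepatocytes also adjust their own lipid synthesis when pups begin to eat solid food. Imprinted genes such as Igf2 and H19, which are expressed from only one parental copy, decline together after birth.

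The libraries were of similar depth across days. Total reads ran from 2577856 to 4223977 at day 1, from 2347670 to 3670101 at day 2 and from 2393181 to 4959721 at day 5, and the mean difference of 16730 reads between day 5 and day 1 was far smaller than the spread (two-sided exact permutation test, p = 0.9707). The number of genes above 0 was lower at day 5 (median 12830) than at day 1 (median 13574.5; exact permutation test, p = 0.008991). The sum of normalized counts was higher at day 5 by 361900 on average (exact permutation test, p = 0.001665), so part of every fall or rise below depends on how libraries are scaled, and both scalings are given beside the first count. Alb, the most abundant plasma protein of the liver, stood at 99350 to 140500 normalized counts at day 1 and at 134300 to 150900 at day 5. Mgmt had a median of 0.577 normalized counts over the 21 libraries and a highest value of 7.957, against 13.004 to 84.995 in 15 WT saline livers of a table that was normalized separately. Xist and the summed Y-linked genes matched the labelled sex in all 21 libraries.

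The day 2 group held a pair of libraries that stood apart from the rest of their group. The libraries labelled day 2 that are named D389006 (male) and D389012 (female) had 1754.1 and 1498.2 normalized counts of Hamp, which encodes the iron hormone hepcidin, while the other 5 day 2 libraries had 1.5 to 8.2. Both lay below the other 5 for H19, with 16.3 and 71.8 against 336.5 to 691.6. Of the 281 genes called higher at day 5 than at day 1, 168 (59.8%) had both of these libraries above all other day 2 libraries, against 811 of all 9364 genes tested (8.66%). Of the 448 genes called lower, 81 (18.1%) had both below the other 5, against 9.26% of all genes. The library numbers carry a related pattern: divided by 6, the digits after D389 leave a remainder of 4 in all 16 Mgmt-/- day 1 libraries of the run, 5 in all 8 Mgmt-/- NDMA day 2 libraries and 0 in all 8 Mgmt-/- NDMA day 5 libraries, whereas D389006 and D389012 leave 0 like the day 5 libraries, and the 2 kidney-transcript libraries labelled day 5 leave 5 like the day 2 libraries. The labels of these 4 libraries are therefore in doubt: if they were exchanged, the pair would be day 5 livers and the libraries left out would belong to day 2, and whether they were exchanged was not tested. The libraries were kept under their labels, and the counts of calls that involve day 2 are given with and without the pair.

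Between postnatal day 16 and postnatal day 20, 281 genes rose (3% of the 9364 tested) and 448 fell (4.78%), 729 in all (7.79%), as called by limma at an adjusted p below 0.05 and an absolute log2 fold change above 0.58. The median log2 fold change of all genes was -0.056. The risen genes were the more abundant, with a median level of 138.8 normalized counts against 21.55 for the fallen genes, and 211 of the 448 fallen genes lay under a mean of 20. Values of day 1 and day 5 did not overlap at all for 157 genes in the upward direction (1.68%) and for 68 in the downward direction (0.726%), or 2.4% of the genes tested. The split between rises and falls depends on the scaling: with every library set to the same total, 111 genes rose (1.18% of 9417) and 1218 fell (12.9%) around a median shift of -0.284, and with the 50 most abundant genes left out of that total, 139 rose (1.48% of 9402) and 1059 fell (11.3%) around -0.245. Under the same-total scaling, 110 of the 281 rises and all 448 falls were kept, and no called gene changed direction. Leaving out the day 1 library D389004 brought the count to 404, leaving out the day 5 library D389018 brought it to 460, and leaving out the day 5 library D389042 brought it to 437. In bulk tissue, fewer cells of a type and less RNA per cell cannot be told apart.

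**Figure D1:**
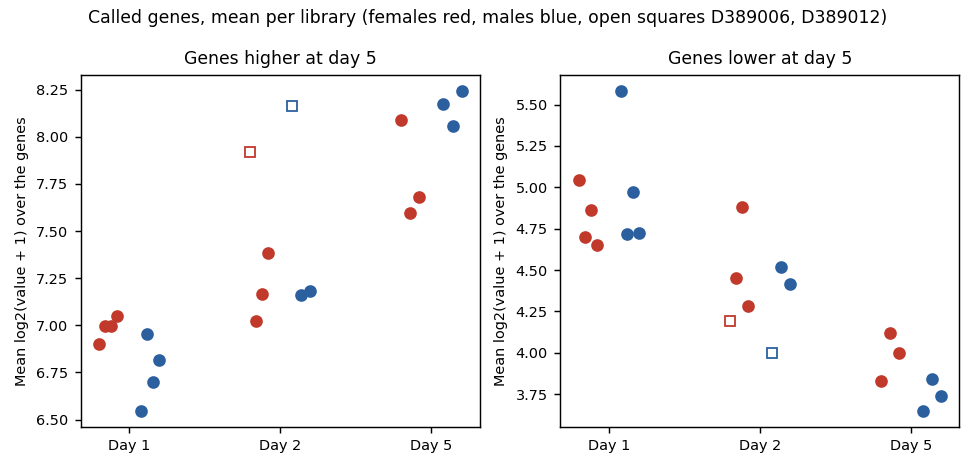
Mean of log2(normalized count + 1) over the 281 genes called higher (left) and the 448 called lower (right) at day 5, one point per library by day, with females in red, males in blue and open squares for D389006 and D389012. These genes were chosen by the day 5 against day 1 test, so the gap between those days is a description: the risen genes averaged 6.547 to 7.051 at day 1 and 7.594 to 8.245 at day 5, and the open squares at day 2 stood at 8.161 and 7.921 while the other 5 lay between 7.022 and 7.383.

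Drug metabolising cytochrome P450s had the largest share of genes called higher of any list in the main fit. The share of cholesterol synthesis genes was larger with edgeR (16 of 22) and DESeq2 (19 of 22), against 20 of 35 P450s in each. Of 35 P450 genes tested, 20 rose and 1 fell, against 3% and 4.78% of all genes, with a median log2 fold change of 0.75, and 32 of the 35 changes were positive. Cyp2c54, a member of the Cyp2c cluster on chromosome 19, had 6.514, 14.17 and 43.23 normalized counts (lowest, median and highest) at day 1, followed by 58.92, 68.06 and 308.5 at day 2 and by 66.47, 192.1 and 274.3 at day 5. No day 1 liver reached the lowest day 2 or day 5 liver, and the gene rose by 3.35 ± 0.45 on the log2(value + 1) scale (standard error of the limma fit, adjusted p = 0.00048). Cyp3a11, the chief drug-oxidising P450 of adult mouse liver, had 2285, 4973 and 5691 at day 1, followed by 7316, 8763 and 10980 at day 2 (7316.2 to 9316.8 without D389006 and D389012) and by 8543, 11420 and 15110 at day 5. Its groups did not overlap between day 1 and either later day, and it rose by 1.40 ± 0.17 (adjusted p = 9.583e-05). Cyp2f2, a P450 of periportal hepatocytes, had 370.4, 418.2 and 542.6 at day 1 and 1068, 2191 and 3237 at day 5, with day 2 spread across both ranges at 355.8 to 2752. The highest day 2 values, 2751.8 and 1795.7, were those of D389006 and D389012, and the other 5 day 2 livers had 355.8 to 1060.6. The change of Cyp2f2 was 2.17 ± 0.38 (adjusted p = 0.0026).

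Among the other members of the Cyp2c cluster, Cyp2c50 rose from a median of 657.2 to 2925, Cyp2c40 from 110.9 to 564.6, Cyp2c69 from 188.9 to 791.8 and Cyp2c67 from 18.42 to 65.5, and in each of these the day 1 and day 5 values did not overlap. Cyp2c29, the most abundant pericentral gene measured, rose by 1.25 ± 0.24 (adjusted p = 0.0037) from a median of 3921 to 10030, with day 1 reaching 8273 and day 5 starting at 8035. Genes of the Cyp2c, Cyp3a and Mup clusters are near-identical copies whose 3′ reads could have been shared between them, so the value of any one copy is uncertain. The single P450 that fell was Cyp3a16, which encodes a neonatal form of the Cyp3a family. It had 79.26, 119.1 and 212 normalized counts at day 1 and 11.26, 29.8 and 127.8 at day 5, and its change of -1.92 ± 0.55 (adjusted p = 0.037) sat beside the rise of Cyp3a11 in the same cluster on chromosome 5. This fall was weaker in 15 of 41 alternatives, over which the change ran from -3.114 to -0.969 and the adjusted p reached 0.4561. With no sex term, 0 P450s were called lower. The 3 day 5 males, at 11.3 to 18.2, were below the 3 day 5 females, at 41.4 to 127.8; the sex difference of the change was not called.

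Conjugation enzymes rose without a counterpart in the other direction. Of 39 tested, 19 rose and 0 fell, against 3% and 4.78% of all genes, with a median of 0.70, and 35 changes were positive. Nnmt, which methylates nicotinamide, rose from a median of 121.2 to 392.2 by 1.98 ± 0.455 (adjusted p = 0.013). Gstm3, a glutathione transferase, went from 61.97, 86.27 and 147.1 at day 1 to 114.1, 360.4 and 845.6 at day 5, a rise of 1.80 ± 0.44 with some overlap (adjusted p = 0.018). Mgst1, the microsomal glutathione transferase and the most abundant member, rose by 0.73 ± 0.14 (adjusted p = 0.0017) from a median of 9197 to 15030. Sult2a1, a steroid sulfotransferase and the next most abundant member, had a median of 5577 at day 1 and 5337 at day 5 (change 0.05 ± 0.17, adjusted p = 0.87). Both scalings to a common total left 11 of the 39 conjugation genes called, all of them rises, and of the P450s 13 rose and 1 fell with every library at the same total, or 15 and 1 with the 50 most abundant genes left out of it, where 1.18% and 1.48% of all genes rose. The carboxylesterases Ces3a and Ces1g, which cleave esters of drugs and lipids, rose by 2.33 ± 0.55 (adjusted p = 0.015) and 1.83 ± 0.27 (adjusted p = 0.00066).

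**Figure D2:**
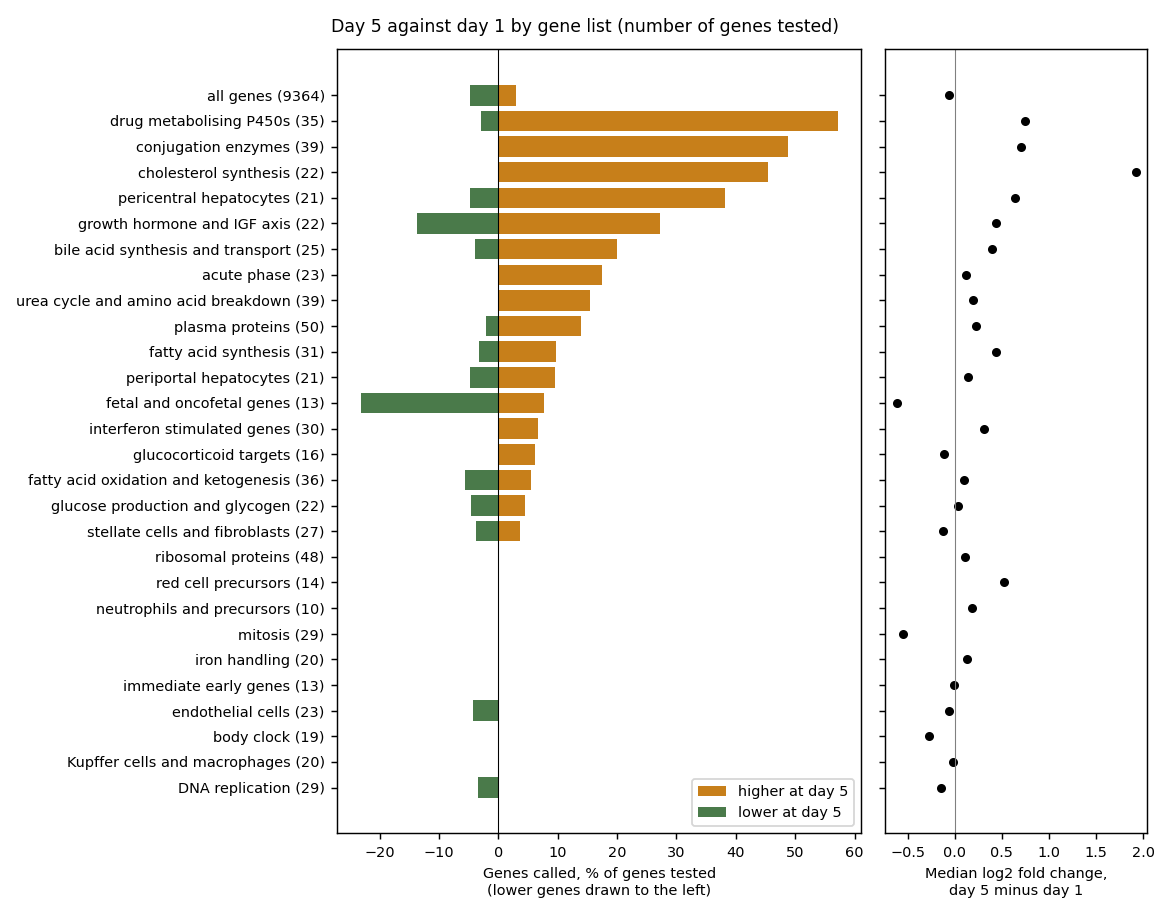
Share of tested genes called higher (orange) and lower (green, drawn to the left) at day 5 against day 1 for each gene list with 10 or more genes tested (left), and the median log2 fold change of the list (right). The number tested stands after each name, and the row for all genes gives the background: cholesterol synthesis (10 of 22), the P450s (20 of 35) and the conjugation enzymes (19 of 39) had the longest bars to the right.

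Secreted proteins and the growth hormone axis moved in both directions. Orm1, the acute phase protein orosomucoid, had the largest rise among the genes with a mean of at least 20 and no overlap between the groups: 1.671, 7.044 and 31.83 at day 1, followed by 6.602, 40.46 and 197.7 at day 2 (6.6 to 41.0 without D389006 and D389012) and by 42.9, 85.66 and 278.8 at day 5, or 3.72 ± 0.71 (adjusted p = 0.0049). Serpina3k, a protease inhibitor whose liver level depends on growth hormone, had 682.4, 957.3 and 1831 at day 1 against 3317, 10910 and 16640 at day 5, a rise of 2.99 ± 0.64 (adjusted p = 0.0094). Every day 5 liver exceeded every day 1 liver for both genes. Mup3, a major urinary protein that binds pheromones, had 8.647, 18.41 and 67.64 at day 1 and 47.69, 954.3 and 1398 at day 5, with a rise of 4.50 ± 1.01 (adjusted p = 0.011). The day 5 males held 1149.6 to 1398.1 and the day 5 females 47.7 to 759, and the lowest day 5 female lay inside the day 1 range. Mup20, another urinary protein, stayed near the floor, with day 1 values of 0 to 4.642 and day 5 values of 2.555 to 23.01, and rose by 2.63 ± 0.61 (adjusted p = 0.0076).

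Of the 22 tested genes of the growth hormone and insulin-like growth factor axis, 6 rose and 3 fell, against 3% and 4.78% of all genes, with a median of 0.44. With every library at the same total 5 rose and 5 fell around 0.21, against 1.18% and 12.9%. Leaving out D389018 left 5 of the 22 called. Lifr, a receptor for leukaemia inhibitory factor, rose from a median of 130.9 to 485.8 (1.88 ± 0.42, adjusted p = 0.011). Igf1, the main growth hormone product of the liver, had 2105, 2633 and 3367 at day 1 against 3127, 3772 and 4771 at day 5, a change of 0.55 ± 0.15 that passed the adjusted p (0.023) but not the fold threshold. The growth hormone receptor gene Ghr did not pass the test (0.22 ± 0.12, adjusted p = 0.22). Igfbp2, a binding protein that is high in fetal liver, fell by 1.68 on the log2 scale (SE 0.45, adjusted p = 0.028), from a median of 779 to 239.5.

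Of 23 acute phase genes, 4 rose and 0 fell, against 3% and 4.78% of all genes, and the list's median was 0.12. With every library at the same total 4 rose and 1 fell around -0.115, against 1.18% and 12.9% of all genes around -0.284. Besides Orm1, the rises were led by Saa2, a serum amyloid protein, from 5.412, 15.03 and 18.73 to 30.64, 39.41 and 61.41 (1.65 ± 0.27, adjusted p = 0.00065), and Crp, C-reactive protein, from 449.7, 605.2 and 762.1 to 1018, 1189 and 1306 (0.97 ± 0.13, adjusted p = 0.00015). The abundant acute phase genes Hp and Hpx, which encode haptoglobin and hemopexin, had changes of -0.02 ± 0.24 and 0.19 ± 0.12 with adjusted p-values of 0.96 and 0.29. Of 50 plasma protein genes, 7 rose and 1 fell, against 3% and 4.78% of all genes, with a median of 0.22. With every library at the same total 1 rose and 3 fell around -0.018, against 1.18% and 12.9% of all genes around -0.284. With the 50 most abundant genes left out of that total 1 rose and 2 fell, against 1.48% and 11.3%. The one that fell in the main fit was Apob, the core protein of secreted lipoproteins (-0.82 ± 0.23, adjusted p = 0.03). Its highest day 1 value of 2464 came from library D389004, and the other 7 day 1 livers were far below it.

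**Figure D3:**
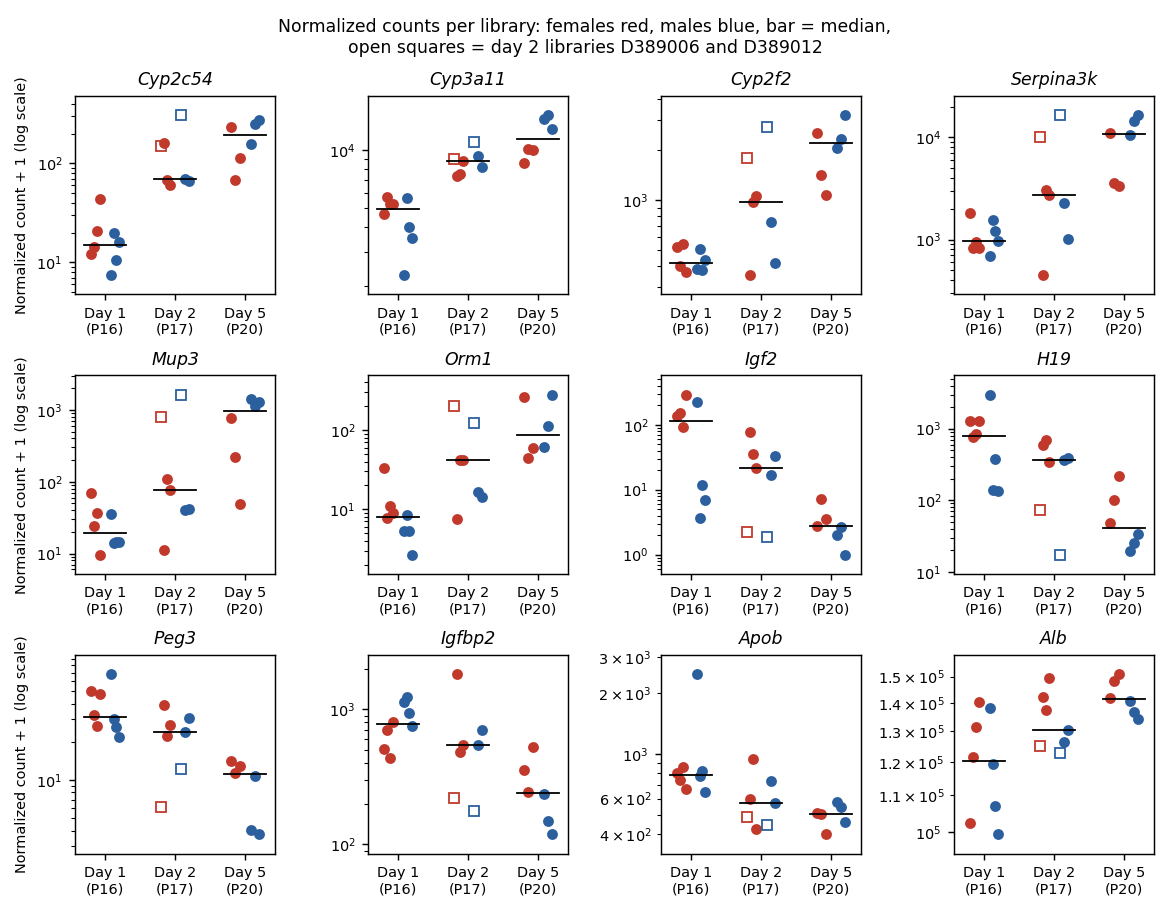
Normalized counts + 1 on a log axis for 12 genes, one point per library by day, with females in red, males in blue, a bar at the median and open squares for D389006 and D389012. Cyp3a11 and Cyp2c54 had already left the day 1 range at day 2, while for Serpina3k, Mup3, Igf2 and H19 the open squares lay with the day 5 libraries and apart from the other day 2 libraries.

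The genes of cholesterol synthesis had the largest median change of any list, 1.92. Their levels differed widely between livers of day 2 and between livers of day 5, but not between those of day 1. All 22 tested genes were higher at day 5, and 10 were called, against 3% of all genes called higher. Cells raise these genes together when their sterol content falls, through transcription factors of the SREBP family that act with NF-Y, which binds the letters CCAAT. To show the sequence that sits at such genes, the 150 bases upstream of the start are printed for 4 genes that rose and whose values are given below: Msmo1 (chr8:64733579-64733728, minus strand), Mvd (chr8:122443423-122443572, minus strand), Nsdhl (chrX:72918371-72918520, plus strand) and Ebp (chrX:8193513-8193662, minus strand), taken from RefSeq on GRCm38.p6 and read 5′ to 3′ along the gene, with CCAAT or its reverse complement ATTGG in capitals. The annotations differ for Msmo1, whose GENCODE gene model starts at 64733792 and so holds the printed window, and for Nsdhl, whose GENCODE model starts at 72918557. Where a gene had several entries, the one with the most matches was printed. Acat2, with 0 matches within 250 bases, and Pmvk, with 1 match 136 bases before the start, also rose but are not printed. The 4 sequences therefore show what the letters look like and not how often they occur.
Msmo1: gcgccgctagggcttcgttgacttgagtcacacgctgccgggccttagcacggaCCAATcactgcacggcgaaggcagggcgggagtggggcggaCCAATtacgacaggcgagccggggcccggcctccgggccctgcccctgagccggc
Mvd: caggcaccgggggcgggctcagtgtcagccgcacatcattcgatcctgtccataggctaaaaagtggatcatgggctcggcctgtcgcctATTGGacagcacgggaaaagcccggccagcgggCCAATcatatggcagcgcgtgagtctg
Nsdhl: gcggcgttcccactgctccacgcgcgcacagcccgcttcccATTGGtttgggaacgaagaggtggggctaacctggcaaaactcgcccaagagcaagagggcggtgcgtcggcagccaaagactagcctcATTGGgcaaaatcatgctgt
Ebp: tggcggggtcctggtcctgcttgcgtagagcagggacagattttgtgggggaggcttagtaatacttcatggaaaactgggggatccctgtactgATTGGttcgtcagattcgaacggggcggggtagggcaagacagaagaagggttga

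Of the 24 genes on the list, 16 had an upstream sequence among those used here, and 15 of these 16 (93.8%) held CCAAT on either strand within 250 bases before the start, against 10133 of 27025 genes (37.5%) and 3078 of the 7488 tested genes with a sequence (41.1%). Of the 6 called genes with a sequence, 5 held these letters in that window and 1 did not. At least 2 copies stood in 8 of 16 (50%), against 11.5% of all genes and 15.4% of the tested genes with a sequence. A gene with several entries was counted by the entry with the most matches. The sterol response letters CACNCCAC, searched on both strands, were present in 3 of 16 (18.8%), in 6.05% of all genes and in 6.48% of the tested genes. Each set of letters was counted by itself, so a base could count toward both. A match describes the letters in this window and was not tested as a binding site.

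Fdps, farnesyl diphosphate synthase, had 11.62, 26.22 and 30.29 normalized counts at day 1 and 54.21, 400.5 and 924.2 at day 5, so that every day 5 liver exceeded every day 1 liver, and the gene rose by 3.40 ± 1.005 (adjusted p = 0.041). Sqle, squalene epoxidase, had 0 to 4.652 at day 1, while the 6 day 5 livers had 272.2, 232, 108.4, 18.1, 3.3 and 2.6 (4.14 ± 1.26, adjusted p = 0.046). Msmo1, a sterol methyl oxidase, had 27.59, 53.04 and 102.6 at day 1 and 91.98, 828.2 and 1945 at day 5 (3.20 ± 0.94, adjusted p = 0.04). The day 5 livers thus fell into a high set, D389018, D389024 and D389042, an intermediate liver, D389030, and a pair near the day 1 level, the females D389036 and D389048. Mvd, mevalonate diphosphate decarboxylase, rose by 2.69 ± 0.61 (adjusted p = 0.0076), and Nsdhl, a sterol dehydrogenase, by 2.64 ± 0.73 (adjusted p = 0.03). Ebp, a sterol isomerase with 502 to 860.6 normalized counts at day 1, rose by 0.87 ± 0.23 (adjusted p = 0.02). Hmgcs1, which catalyses an early step of the pathway, had a change of 2.27 ± 0.82 that did not pass (adjusted p = 0.089).

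Both D389006 and D389012 had values above the other 5 day 2 livers for 22 of the 22 cholesterol genes, against 8.66% of all genes tested. Without this pair, 18 of the 22 genes rose from day 1 to day 5, and 13 rose from day 2 to day 5 with a list median of 1.97. The pair was chosen after its values were seen, so these counts are a description and not a separate test. The count depended on single livers: leaving out 1 library at a time moved it between 1 (without D389004) and 16 (without D389006), leaving out D389018 or D389042 gave 1, and keeping only the libraries numbered above 24 in the run gave 0. Per the study's methods, cDNA of 24 wells was pooled, but the labels name no pool. Of the livers high for these genes, D389006, D389012, D389018 and D389024 are numbered 24 or below and D389042 above. The day 2 liver D389023 is also numbered below 24 and was not high. Whether a pool plays a part was not tested. Leaving out D389036 and D389048 gave 20 called genes. edgeR called 16, DESeq2 called 19 and a limma fit of day 1 and day 5 alone called 17. Males alone gave 4 and females alone gave 0. Hamp was not named by the rule for genes and was picked after its values were seen; it followed the same livers with 1.594, 6.241 and 111.8 at day 1 and with 2968.1, 2676.4, 2163, 1189.2, 11.1 and 10.4 in the 6 day 5 livers. Its change of 5.27 ± 1.66 did not pass (adjusted p = 0.053), but it passed when the pair was left out of the estimate of the spread (adjusted p = 0.0096), and over all alternatives its adjusted p ran from 7.179e-05 to 0.6139. Against day 2 without the pair it also passed (5.83, adjusted p = 0.044). The pair was singled out partly by its Hamp values, so neither fit without the pair can decide whether Hamp changed.

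**Figure D4:**
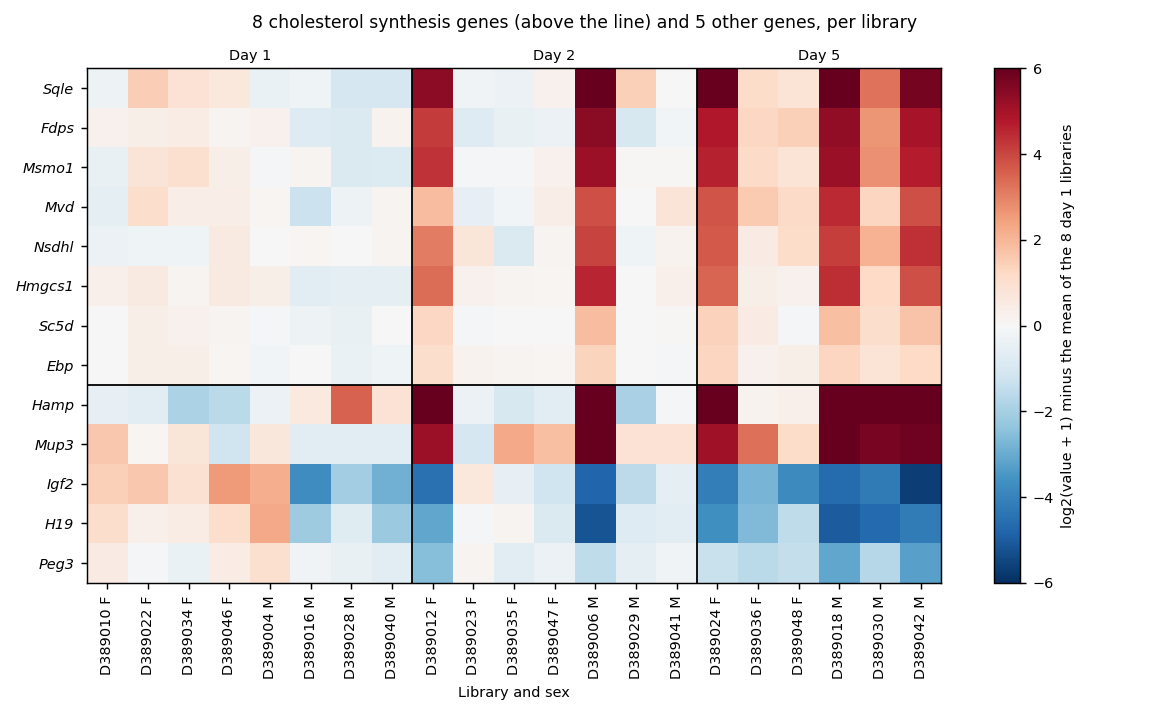
Log2(normalized count + 1) minus the mean of the 8 day 1 libraries (colour, red higher and blue lower, values beyond 6 in either direction drawn at 6) for 8 of the 22 cholesterol synthesis genes and 5 other genes, one column per library with its sex. Columns D389006 and D389012 at day 2 and D389018, D389024 and D389042 at day 5 are red over most of the cholesterol genes shown, while D389036 and D389048 are close to the day 1 colour.

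Fatty acid metabolism had 4 of 31 synthesis genes and 4 of 36 oxidation genes called, against 7.79% of all genes. Of the synthesis genes, 3 rose and 1 fell, with a median of 0.44; that list also holds Mvk, an enzyme of sterol synthesis. The count of 4 became 10 without D389006 and 7 without D389012, D389036 or D389048, and without D389006 and D389012 together 10 rose and 1 fell. edgeR gave 8 rises and DESeq2 gave 11. Pklr, liver pyruvate kinase, rose from 54.7, 64.85 and 88.58 to 91.98, 124.3 and 211.9 without overlap (0.93 ± 0.18, adjusted p = 0.0013). Srebf1, the transcription factor of lipid synthesis, fell by 0.96 (SE 0.22, adjusted p = 0.0064). Of the oxidation genes, 2 rose and 2 fell, with a median of 0.10, against 3% higher and 4.78% lower among all genes. With every library at the same total 2 rose and 6 fell around -0.135, against 1.18% and 12.9% of all genes around -0.284. Fabp1, the liver fatty acid binding protein, rose by 1.28 ± 0.26 (adjusted p = 0.0056), and Ppara, the receptor that drives fatty acid oxidation, fell by 0.70 (SE 0.16, adjusted p = 0.0056).

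The counts for amino acid and bile acid metabolism moved with the scaling, as did those of all genes. With every library at the same total, 1.18% of all genes rose and 12.9% fell around a median of -0.284. Leaving the 50 most abundant genes out of that total gave 1.48% and 11.3%. Of 39 urea cycle and amino acid genes, 6 rose and 0 fell (median 0.19), against 3% and 4.78% of all genes, but with every library at the same total 0 rose and 3 fell (median -0.05), and with the 50 most abundant genes left out of that total 1 rose and 3 fell. Leaving out D389042 left 3 called. Oat, ornithine aminotransferase, rose by 0.79 ± 0.14 (adjusted p = 0.0011) from 281.8, 484.3 and 603.4 to 715.4, 799.2 and 889.1 without overlap, while Cps1, the first enzyme of the urea cycle, had a change of -0.003 ± 0.139 (adjusted p = 0.99). Tat, tyrosine aminotransferase, rose from a median of 795.3 to 2156 (1.45 ± 0.36, adjusted p = 0.02). Of 25 bile acid genes, 5 rose and 1 fell (median 0.40), against 1 and 2 (median 0.16) at the same total, and leaving out D389004 or D389048 left 3 called. Baat, which joins bile acids to amino acids, rose by 0.91 ± 0.19 (adjusted p = 0.0032), and Abcg5, one part of the sterol exporter, fell by 0.98 (SE 0.29, adjusted p = 0.035). Pericentral hepatocyte genes numbered 8 rises and 1 fall of 21 (median 0.64; 5 and 3 at the same total), and periportal genes 2 rises and 1 fall of 21 (median 0.14); the difference between these lists was not tested. Over all genes, 3% rose and 4.78% fell, or 1.18% and 12.9% with every library at the same total. Upward without overlap between day 1 and day 5 were 5 pericentral and 1 periportal genes, against 1.68% of all genes.

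Among fetal and oncofetal genes, 3 of 13 fell and 1 rose, against 4.78% and 3% of all genes, with a median of -0.61. With every library at the same total 8 fell and 0 rose, against 12.9% and 1.18%. Igf2, the fetal growth factor (chr7:142650766-142666816), had 2.706, 113.3 and 289.7 normalized counts at day 1, followed by 0.8594, 20.59 and 76.29 at day 2 (15.5 to 76.3 without D389006 and D389012) and by 0, 1.721 and 6.129 at day 5, and fell by 4.21 on the log2 scale (SE 0.95, adjusted p = 0.012). H19, the imprinted noncoding RNA next to it (chr7:142575529-142578143), had 132.9, 800.7 and 2991 at day 1 and 18.42, 40.08 and 213.8 at day 5 (-3.62 ± 0.79, adjusted p = 0.0098). Peg3, another imprinted gene, fell without overlap from 20.89, 30.16 and 66.77 to 2.734, 10.12 and 13.19 (-2.07 ± 0.37, adjusted p = 0.0013). The day 1 livers were not uniform: the males D389016, D389028 and D389040 had 2.7, 10.6 and 5.8 normalized counts of Igf2, and the other 5 day 1 livers had 92 to 289.7. Those same males were also the lowest for H19 at 138.7, 376.1 and 132.9. Without them, the falls and rises between day 5 and day 1 numbered 324 and 214. Afp, alpha-fetoprotein, had 64.95, 404.1 and 2336 at day 1 and 18.08, 47.98 and 242.7 at day 5, and its change of -2.52 ± 0.89 did not pass (adjusted p = 0.081). The gene of the list that rose was Slc38a4, an imprinted amino acid transporter, from 702, 926.4 and 1389 to 1456, 1515 and 1608 without overlap (0.65 ± 0.12, adjusted p = 0.0014).

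The other falls were smaller and lay mostly outside these lists. Of the 34 called falls with a mean of at least 20 and no overlap, the steepest after Peg3 were Ndst1, an enzyme of heparan sulfate (-1.25 ± 0.24, adjusted p = 0.0018), Rnf149, a ubiquitin ligase (-1.22 ± 0.23, adjusted p = 0.0016), Pard3, a polarity protein (-1.19 ± 0.22, adjusted p = 0.0013), and Syne1, a protein of the nuclear envelope (-1.17 ± 0.26, adjusted p = 0.0055). Marcks, Sfpq, Luc7l2, Ctdsp2, Pabpn1, Glud1 and Fzd4 followed with changes between -1.17 and -1.11. Sfpq, Luc7l2 and Pabpn1 encode RNA-binding proteins of splicing and polyadenylation. The fallen genes spanned a median of 41221 bases in the genome, against 21426 for the risen genes and 23732 for all genes tested. Library D389004 was the highest of the 8 day 1 livers for Ndst1 at 110.7, Pard3 at 66.2 and Syne1 at 84.1, and averaged 5.585 over the fallen genes on the log2 scale against 4.654 to 5.044 in the other 7. The part of this library in the falls is given by leaving it out, when 192 genes rose and 212 fell.

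The counts for markers of other cell types stand against 3% of all genes called higher, 4.78% lower and 7.79% together. None of 20 Kupffer cell genes, 10 neutrophil genes, 4 B cell genes or 14 red cell precursor genes was called, and the summed levels overlapped between days: 1339 to 3833 at day 1 and 1750 to 2650 at day 5 for Kupffer cells, where Lyz2 was the most abundant, and 19630 to 53930 and 30910 to 69820 for red cell precursors, where Hbb-bs was. The red cell list had a median change of 0.52. One of 7 T and NK cell genes fell (Gzma, a granzyme, -1.03 ± 0.32, adjusted p = 0.038), 1 of 23 endothelial genes (Cdh5, -0.996 ± 0.246, adjusted p = 0.011) and 1 of 7 cholangiocyte genes (Onecut2, -0.996 ± 0.289, adjusted p = 0.03). Of 27 stellate cell and fibroblast genes, Lum rose (0.90 ± 0.22, adjusted p = 0.011) and Reln fell (-0.84 ± 0.25, adjusted p = 0.028). Of 29 mitosis genes none was called, although 28 changes were negative (median -0.55), where 4235 of all 9364 changes were positive. The summed mitosis level at day 1 was 331.5, 555.7 and 611.7 in the males D389016, D389028 and D389040. It was 973.4 to 1562.5 in the other day 1 livers and 365.4 to 1010 at day 5. Of 29 DNA replication genes Mcm6, a helicase subunit, fell (-0.77 ± 0.20, adjusted p = 0.014). Of 30 interferon stimulated genes, Ifit2 (0.92 ± 0.25, adjusted p = 0.021) and Ifit1 (0.81 ± 0.25, adjusted p = 0.038) rose. None of 48 ribosomal protein genes, 13 immediate early genes or 19 body clock genes was called. Of 20 kidney genes in the table, 14 had a mean under 1 and Aqp2 and Nphs1 were at 0 in all 21 livers; Cyp2j5, which hepatocytes also express, rose (1.10 ± 0.23, adjusted p = 0.0056) and Miox fell (-1.05 ± 0.33, adjusted p = 0.041). Kap was used to choose the libraries and reached at most 5.156 in the 21.

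Day 2 was taken as a step between the others. From day 1 to day 2, 8 genes rose (0.0854% of 9364) and 1 fell (0.0107%). The 8 were Cyp2c54 (2.72, adjusted p = 0.018), Cyp2c50 (1.56, adjusted p = 0.0497), Cyp2c55 (1.01, adjusted p = 0.036), Cyp3a11 (0.98, adjusted p = 0.018), the carboxylesterase Ces1e (1.06, adjusted p = 0.0497), the epoxide hydrolase Ephx1 (0.78, adjusted p = 0.036), Oat (0.75, adjusted p = 0.018) and the alcohol dehydrogenase Adh1 (0.65, adjusted p = 0.0497). The gene that fell was Trpm7, an ion channel (-0.78, adjusted p = 0.0497). Ces1e, Adh1, Cyp2c55, Ephx1 and Trpm7 fell outside the rule for named genes and were picked after their values were seen. From day 2 to day 5, 0 genes were called by limma, edgeR or DESeq2, with 650 at an unadjusted p below 0.05 in limma.

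Without D389006 and D389012 the calls lay in the later step, but this pair was chosen after its values were seen. Its values lay near those of day 5 for many of the risen genes. Leaving it out widens the later step by construction, so these counts cannot decide when genes changed. From day 1 to day 2, 0 genes were called by limma (654 at an unadjusted p below 0.05), and from day 2 to day 5, 80 rose (0.851% of 9403) and 26 fell (0.277%), or 1.13% together. The rises from day 2 to day 5 included Hamp, Hamp2, its close copy (4.77, adjusted p = 0.03), and Fdps (3.92, adjusted p = 0.013). Peg3 (-1.70, adjusted p = 0.0096), H19 (-3.03, adjusted p = 0.044) and Cyp3a16 (-1.99, adjusted p = 0.015) were among the falls of that step. These genes were picked after their values were seen. For each of them the pair lay outside the range of the other 5 day 2 livers. Their adjusted p-values therefore depend on the choice of the pair and are no separate test. From day 1 to day 5, which uses the pair only for the spread, 316 rose (3.36%) and 494 fell (5.25%), or 8.61% together. Over the other 5 day 2 livers Cyp2c54 had 58.9 to 160.7 normalized counts, all above the highest day 1 value of 43.23.

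The change from day 1 to day 5 differed between males and females for 2 genes of 9364 (0.0214%; 759 at an unadjusted p below 0.05): Rps26, a ribosomal protein (difference 2.09), and Tmem134, a membrane protein (difference -1.62). With 3 livers of each sex at day 5, males alone gave 298 rises and 243 falls and females alone gave 16 and 12, and this gap in counts was not tested.

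In other mice of the same genotype, 8 livers collected at week 10 were compared with 4 at day 1, all of run 200803Eng, so that no liver was shared with the pups above. There, 475 of 9804 genes were higher at week 10 (4.84%) and 471 lower (4.8%), or 9.65% together. Of the 281 genes that rose by day 5, 279 were tested, 246 of them were also higher at week 10 (88.2%, against 42.2% of all genes), 144 were called higher and 2 were called lower. Of the 448 that fell, 435 were tested, 350 were also lower (80.5%, against 57.8% of all genes), 46 were called lower and 0 higher. Mup3 (6.72, adjusted p = 9.659e-09), Cyp2c54 (4.76, adjusted p = 2.909e-08) and Fdps (3.99, adjusted p = 1.458e-07) were among the highest at week 10, and Igf2 (-6.76, adjusted p = 3.453e-07) and H19 (-7.49, adjusted p = 8.91e-10) among the lowest. The cholesterol list had 21 of 23 genes higher and 0 lower (median 2.04), the P450 list 14 higher and 2 lower of 39, and the mitosis list 17 of 19 lower (median -3.54). Cyp3a11, by contrast, did not pass (1.24, adjusted p = 0.067), nor did Ndst1 (0.04, adjusted p = 0.96).

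**Figure D5:**
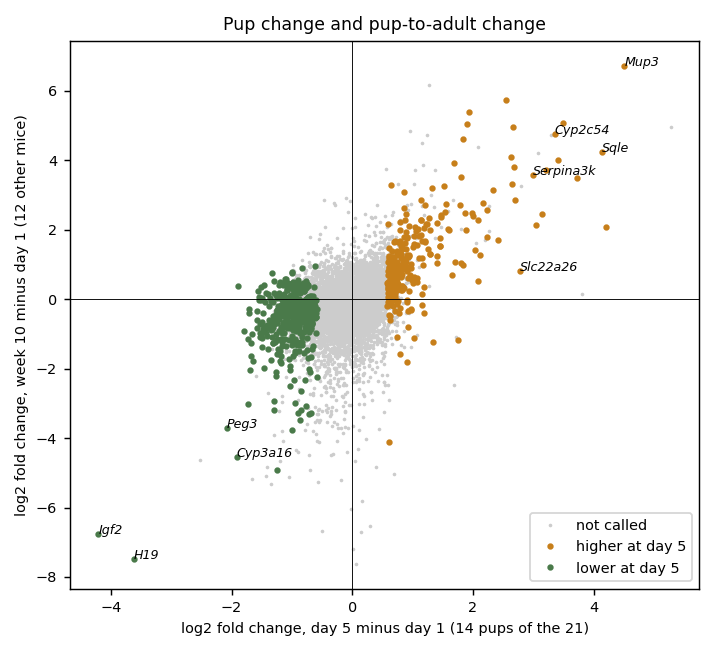
Log2 fold change from day 1 to day 5 in the pups (horizontal) against that from day 1 to week 10 in 12 other mice of the same genotype (vertical), one point per gene, with genes called higher at day 5 in orange, lower in green and the rest in grey. Of the orange genes with a week 10 value, 88.2% lie above 0 on the vertical axis, and 80.5% of the green genes lie below it.

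In the WT saline livers of runs 200710Eng and 200724Eng, where day 5 was compared with day 2 because the WT day 1 livers belong to other runs and were not used here, 19 of 8513 genes rose (0.223%) and 33 fell (0.388%). Of the genes that rose by day 5 in the Mgmt-/- pups, 157 of 278 were higher in WT (56.5%, against 52.1% of all genes), and of those that fell, 126 of 407 were lower (31%, against 47.9%). Hamp (3.75, adjusted p = 1.093e-06) and Hamp2 (4.11, adjusted p = 9.762e-05) rose between these days in WT, and the 22 cholesterol genes had a median of 1.27 with 1 called. The P450 list had 0 calls of 36 and a median of -0.23. In WT, sex and run were the same split, so they cannot be told apart.

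NDMA-treated livers of the same run, from other mice but fitted together with the saline livers, had 538 rises (5.62% of 9571) and 589 falls (6.15%) between day 1 and day 5. The P450s counted 19 rises and 0 falls there and the conjugation enzymes 27 and 1, while the cholesterol list counted 0 rises and 1 fall with a median of 0.04. The difference between treatments was not tested for whole lists. By the interaction term of the limma fit it did not pass for Fdps, Sqle, Msmo1 or Ebp (adjusted p = 0.122, 0.094, 0.278 and 0.307). The changes differed between treatments for 28 genes upward (0.293%) and 23 downward (0.24%), or 0.533% together, a contrast that uses the same saline livers as the main comparison. Cyp2a4 and Cyp2c69, which rose after saline by 2.24 and 2.09, changed after NDMA by -0.26 (adjusted p = 0.58) and -0.69 (adjusted p = 0.11), and the differences were -2.49 and -2.78. Cyp4a14, a fatty acid hydroxylase, differed the other way, with a change of 0.10 after saline (adjusted p = 0.81) and 2.06 after NDMA (adjusted p = 2.426e-08).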

How the data were processed

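Liver RNA was measured with 3′ digital gene expression libraries carrying molecular identifiers. Per the study's methods, reads were aligned with STAR to GRCm38 (mm10) and counted per gene with ESAT, and the submitters' processing notes name STAR and DESeq2, with versions not given in the sources used here. The deposited values are a signal, namely read counts scaled by the authors to a common size with the DESeq2 median-of-ratios method (normalized counts), and Mgmt-/- and WT livers are in separate tables. In all 21 libraries the values were whole multiples of what 1 read is worth, and 100% came out whole (within 0.1 read or 1e-05 of the value, whichever is larger), so reads were recovered and used for the count tests. Reads were not recovered for 1 NDMA day 1 and 3 WT day 2 libraries, which edgeR and DESeq2 left out. In the tables, 139 columns were not used.

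Log2(value + 1) was fitted with limma 3.58.1 (empirical Bayes with trend and robust, R 4.3.3) over genes averaging 5 or more in the fit, with sex as a term and the 3 days in 1 fit, and Benjamini-Hochberg adjustment ran over all genes of the fit. A gene was called at an adjusted p below 0.05 and an absolute log2 fold change above 0.58. Every adjusted p and standard error in the text comes from these limma fits. A fold change on this scale understates the change of low genes. Levels are not per length and were compared between livers only. Alternatives covered the pseudocount (0.5, 5), the filter (none, a mean of 20), the scaling, the terms, single sexes, single libraries left out, edgeR 4.0.16 and DESeq2 1.42.0 on the recovered reads (edgeR called 298 rises and 417 falls), and settings chosen after seeing the data. On simulated counts for the day 5 against day 1 comparison (9364 genes), limma recovered 48% of genes changed by a log2 fold of 1 and 95% of those changed by 2, with 3 false calls. Apart from depth and the changed genes, the simulated livers shared the same expected levels and varied independently, with no litter effect. The simulation therefore cannot say how many calls in the real livers come from litter or other shared differences.

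Genes named by rule were the 15 largest rises and 15 largest falls among called genes with a mean of at least 20 and no overlap, up to 3 called and the 2 most abundant members of each list, the body clock genes, up to 5 called interaction genes, and Mgmt, the sex genes and Kap. Afp, Ghr, Mvd, Nsdhl, Hmgcs1, Acat2 and Pmvk were named outside this rule. So were the genes marked in the text as picked after their values were seen. A few genes of the lists are not reported here by name and stay in the counts. The members and lists were chosen with earlier results of these data known. Gene positions came from GENCODE vM21 and upstream sequences from RefSeq, both on GRCm38.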

Additional observations from a re-analysis of the deposited data

Results flagged for a closer look

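In 252 checks of single genes and library measures within a day, 16 had 1 library standing far from the others; about 1 in 20 groups would do so by chance. At day 1, library D389004 was highest for 7 genes: Apob at 2464 normalized counts, Glud1 at 1776.2, Ppara at 458.2, Lpgat1 at 258.9, Ndst1 at 110.7, Syne1 at 84.1 and Pard3 at 66.2. All 7 were called lower at day 5. The checks covered 80 genes, nearly all of them called between day 1 and day 5, so falls in all 7 are no separate result. This library's part in each was not tested beyond the fits without it. Also at day 1, D389046 was highest for Gzma at 49.0, and D389010 was highest for Mup20 at 4.6.

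At day 2, D389006 was lowest for Marcks at 18.9, Cyp3a16 at 6.0 and Reln at 24.9, and D389012 was lowest for Fzd4 at 7.6. D389035 had the lowest sum of normalized counts at 2081305.9. At day 5, D389018 was lowest for Asxl2 at 8.2 and D389024 was highest for Gzma at 14.4.

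The change from day 1 to day 5 differed between the sexes for Rps26 (2.09 on the log2 scale, the change in males being the higher) and Tmem134 (-1.62, the change in males being the lower), by the interaction term of the limma fit. Between NDMA and saline livers it differed for Cyp2c69 (-2.78), Cyp2a4 (-2.49), Cyp4a14 (1.96), Det1 (1.37) and Aldh3a2 (0.95), each given as the change after NDMA minus the change after saline.

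Outside the 21 livers, Kap stood at 7562 normalized counts in D389017 and at 6147 in D389011, the libraries left out at day 5, while no member library exceeded 5.156.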

How the results depend on the processing

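Direction held for every called gene under all alternatives of day 5 against day 1 that tested it, apart from keeping the libraries with Kap over 1000, where 80 of the 281 rises and 4 of the 448 falls changed sign, and females alone, where 1 rise did. The count of 729 became 1329 with every library at the same total, 1198 with that total taken without the 50 most abundant genes, 243 with the Kap libraries kept, 28 in females alone and 147 with only libraries numbered above 24 (chosen after seeing the data), and ran from 404 to 919 with 1 library left out. With the Kap libraries kept, the log2 change turned to -0.103 for Mug1, -0.077 for Cyp2c69, -0.279 for Cyp2c50, -0.088 for Ces1g, -1.486 for Slc38a4 and -1.039 for Cyp3a11. It turned to -1.176 for Cyp2c29, -0.018 for Gstm3, -0.402 for Mgst1, -0.039 for Baat, -1.012 for Fabp1 and -1.007 for Tat. It also turned to -0.534 for Cbs, -1.547 for Serpina1c, -1.242 for Crp, -1.501 for Hal, -0.081 for Sc5d and -0.77 for Igf1, and to 0.365 for Atp1b1 and 1.239 for Miox. The liver genes Alb, Apoa1, Ttr, Serpina1c and Fgb averaged 319.1 in D389017 and 469.9 in D389011, against 55933.9 to 85435.1 in the member libraries. The kidney genes Kap, Umod, Slc34a1, Slc12a1 and Fxyd2 averaged 4982.9 and 4432.0 there, against at most 4.297 in the members. The cause of the turned signs was not tested. Day 2 against day 1 (9 calls) gave 3 with no filter, at the same total, with depth as a term or with only these days fitted, 25 with DESeq2, 4 in females, 0 with the Kap libraries kept or without D389006 and D389012, 2 above number 24, and 0 to 35 with 1 library left out. Day 5 against day 2 (0 calls) gave 106 without that pair, which was chosen after seeing the data, 8 above number 24, and 0 to 1 with 1 library left out. Sex by day (2 calls) gave 1 with no filter and 13 with DESeq2. Day by treatment (51 calls) gave 140 with DESeq2, which also left out 1 NDMA library, and 27 with the Kap libraries kept. The WT step (52 calls) gave 5 with edgeR and 31 with DESeq2, both without 3 of its 15 libraries, 166 in males and 4 in females. Week 10 against day 1 (946 calls) ran from 609 to 675 with 1 day 1 library left out. The difference in reads between day 5 and day 1 was -101084 by medians. No paired analysis was run, because the libraries carry unique numbers that no label ties across days. A fit blocked by the order of the library numbers was not run either. At 2347670 to 4959721 reads per library, 3870 of 9364 genes lay under a mean of 20 normalized counts, and small changes of such genes may have been missed at this depth.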

Other observations

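Some genes that were higher at day 5 than at day 1 in male pups were far lower in males than in females among the week 10 livers of run 200803Eng, 4 females and 4 males. These genes were picked after their values were seen, and no test was run on them. Slc22a26, an organic anion transporter, stood at 10.0 to 26.7 normalized counts in day 1 females and 3.3 to 16.9 in day 1 males, and at 55.6 to 124.1 and 90.1 to 129.0 in day 5 females and males. At week 10 it stood at 120.4 to 221.6 in females and at 0 to 2.5 in males. Cyp2c69 stood at 367.7 to 883.7 in day 5 females and 699.8 to 1338.7 in day 5 males, and at week 10 at 1305.7 to 3799.8 in females and 8.4 to 17.2 in males. Cyp2c40 likewise stood at 565 to 955.9 in day 5 males and 3.1 to 14.2 in week 10 males, against 439.7 to 1518.6 in week 10 females. A1bg, a plasma glycoprotein, stood at 244.1 to 357.2 in day 5 males and at 2.8 to 23.4 in week 10 males, against 248.9 to 2618.1 in week 10 females. All 3 male livers at day 5 thus held these transcripts at levels that no male liver reached at week 10.

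Genes that were higher in males at week 10, likewise picked after their values were seen, differed in their level in pups. Ces3a, a carboxylesterase, already stood at 605.9 to 877.6 in day 5 males and 190.5 to 381.9 in day 5 females, and at 1107.5 to 1796.3 and 448.1 to 1170.5 at week 10. Cyp4a12a, a male fatty acid hydroxylase, stood at 0 to 0.9 in day 5 males and at 322.1 to 364.8 in week 10 males, against 2.8 to 6.1 in week 10 females. Mup20 stood at 16.4 to 23.0 in day 5 males and 2.6 to 5.4 in day 5 females, and at 5282.9 to 33811.7 and 406 to 1141.9 at week 10. Levels of the runs come from one table normalized together, but run and age cannot be told apart in this comparison.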
